A study of Mus musculus with 8 samples.

Results

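The comparison set footpad skin of Dkk4 transgenic mouse embryos against footpad skin of wild-type embryos at the embryonic age E15.5, with 2 arrays per genotype. These 4 arrays are every E15.5 sample among the 8 arrays of the series; the other 4 repeat both genotypes at E16.5. All embryos were of the C57BL/6 strain. The labels call the transgene skin specific and do not name the promoter that drives it, nor do they say how many embryos or litters gave each RNA. The design text speaks of 2 sets of samples, so the p-values below measure the spread between those samples, which may be smaller than that between animals.

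Dkk4 is a secreted Wnt antagonist: it binds the Lrp5 and Lrp6 co-receptors and keeps beta-catenin from being stabilised. In mouse skin, sweat glands form only in the footpads, where epidermal Wnt signalling comes first, signalling from the TNF-family ligand Eda through its receptor Edar and NF-kB follows, and Shh acts later in the growing gland germ. E15.5 lies before sweat gland germs are well formed, so the comparison asks what had changed in the skin at an early stage.

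Each array carried 2 dyes. Footpad RNA was in the Cy3 channel and a common reference, pooled RNA of mouse cell lines mixed with RNA of 129 embryonic stem cells, was in the Cy5 channel; no array had the dyes exchanged. The value of a probe on an array is the log2 ratio of Cy3 over Cy5 after background correction and intensity-dependent normalisation, and a difference is transgenic minus wild type. Of 42006 probes of 60 bases each, Cy3 was well above background for 73.9% to 76.5% on the E15.5 arrays, and 31626 probes entered the test. All 4 arrays came from 1 slide scanned on 1 day. Transgenic samples took positions 1 and 2 of it and wild-type samples positions 3 and 4, so genotype and position on the slide cannot be told apart.

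The array files hold probe identifiers and sequences but pair no probe with a gene. Probes were therefore placed by exact match of their sequence to RefSeq windows of 250 bases before and 50 bases after each listed gene start (mouse build GRCm38.p6) and to RefSeq miRNA hairpins. This gave 1 place among those windows to 419 probes (0.997% of all probes) near 411 genes, and 308 of them were tested. A match in 1 window does not show that the sequence occurs once in the genome. A probe that lies upstream of a listed start may read a longer or a different transcript than the named gene's, so its value is that of the sequence and not a level of the gene. The Dkk4 transcript, the transgene and the markers of footpad skin and of other tissues were not among the placed probes, so neither the genotype labels nor the tissue label was checked against expression here.

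Some of the probes described below are shown by sequence, whether or not they differed, each written 5′ to 3′ as on the array. The first is the single probe that passed the test, followed by the 3 unplaced probes with the next lowest p, 2 higher and 1 lower; of these, the first 30 of 60 bases are given in lower case.
Z00022557-1: ccagtaacagacaacattcaaggctaagag
Z00029914-1: cttccaaattgggtatgtttcctataccta
Z00025156-1: aaagttccgatgctgattgtgtaaccaaag
Z00046112-1: tgagaagatgggaagtaaggaacttatgga

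The next set are placed probes of the gene lists for this pathway (Ltb, Madcam1, Aqp5), a planar polarity gene (Vangl2), and the 3 largest placed differences (Cfap410, Ccdc33, Arhgap27os3). Capitals mark the bases that lie at or after the RefSeq gene start; lower-case bases lie before it.
Ltb: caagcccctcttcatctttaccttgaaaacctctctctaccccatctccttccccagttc
Madcam1: CTTCCCCTGGCGGTCACAAGACAGAGGCAG
Aqp5: cgctgagcgcacgatgcgcgcgacccagac
Vangl2: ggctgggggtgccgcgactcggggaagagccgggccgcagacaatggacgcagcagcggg
Cfap410: gctgcgcaggcctctCCCGCTAGCCGAGTG
Ccdc33: aggaatccgttccCTAACCTCCTGCTTAGC
Arhgap27os3: GGTGGCTCAGGTTGGGGTGTTTTCATGTTT

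At E15.5 the genotypes differed by little, and only 1 probe passed the test. Of 31626 probes tested, 1 (0.00316%) passed a Benjamini-Hochberg adjusted p of 0.05 in limma, and it was lower in transgenic skin; 0 were higher. At an unadjusted p under 0.05 there were 2385 probes (7.54%), of which 1405 (4.44%) were higher and 980 (3.1%) were lower in transgenic skin. The genotypes' values did not overlap for 5497 probes (17.4%) with the transgenic samples on top and for 6145 (19.4%) with the wild-type samples on top. The spread over all probes was narrow: the median difference was −0.01, and 95% of differences lay between −0.17 and 0.19. Only 22 probes differed by 1.5-fold or more and 3 by 2-fold or more.

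The arrays of a genotype were not closer to each other than to the arrays of the other genotype. The median absolute log2 difference over probes was 0.0588 between the transgenic replicates and 0.0593 between the wild-type replicates. Across genotypes it was 0.0656, 0.0657, 0.0539 and 0.0627. The closest of the 6 pairs was transgenic replicate 2 with wild-type replicate 1, a pair of opposite genotypes. Most differences at E15.5 were thus of the size seen between replicates.

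**Figure D1:**
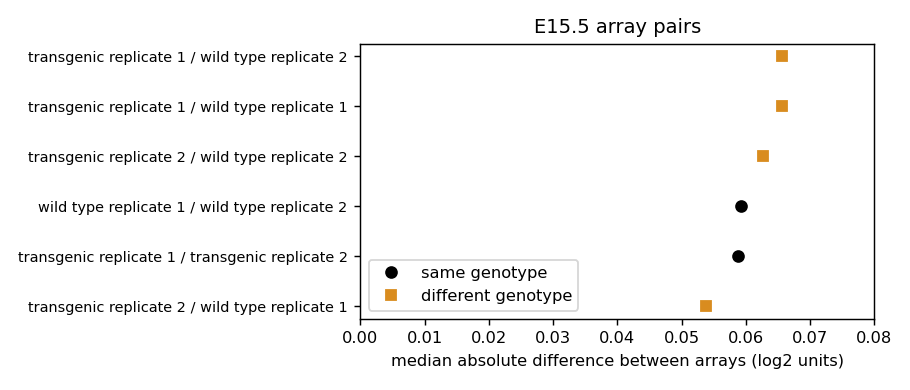
Median absolute difference in log2(Cy3/Cy5) over all tested probes (axis in log2 units) for each of the 6 pairs of E15.5 arrays, within and between genotypes. The 2 replicate pairs (0.0588 and 0.0593) lie inside the range of the 4 pairs across genotypes (0.0539 to 0.0657).

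The probe that passed, Z00022557-1, was lower in transgenic skin by more than any other tested probe. Its log2 ratio was 0.39 and 0.27 in the transgenic samples (0.33 ± 0.08, SD, n = 2) and 3.60 and 3.68 in the wild-type samples (3.64 ± 0.06, SD, n = 2). Both wild-type arrays lay far above both transgenic arrays, and the difference was −3.31 (SE 0.08, limma adjusted p = 1.92e-06). In scanner units after background subtraction, Cy3 read 11.5 and 15.8 on the transgenic arrays and 5851 and 4786 on the wild-type arrays. The Cy5 of the transgenic arrays, given next, was at its floor, so the ratio's exact size depends on that floor. The Cy3 signal was thus near the lower end of the measured range on the transgenic arrays and bright on the wild-type arrays. The gene it reads was not identified here.

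The reference channel of that probe also differed, although the labels give 1 common reference for every array. Background-subtracted Cy5 was −1.86 and 4.65 on the transgenic arrays, not well above background, against 960 (959.6) and 671 on the wild-type arrays, at least 12.6-fold lower on the transgenic arrays. It was the single probe of 31626 (0.00316%) called in a test of Cy5 alone, with a log2 difference of −3.71 (adjusted p = 0.000701). In Cy3 alone the difference was −6.16 (adjusted p = 1.48e-07), larger than the difference of the ratio. The 12 neighbouring tested probes, within 2 rows and 1 column of its spot, had Cy5 differences of −0.27 to 0.05 and ratio differences of −0.26 to 0.23. The part of the reference channel in this result was not tested.

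At E16.5, where each genotype had a slide of its own, the probe was again low in both channels of the transgenic arrays. Cy3 was 22.5 and 29.6 in transgenic against 4279 and 4903 in wild-type samples, and Cy5 was 1.1 and −1.49 against 687 and 822. The E16.5 difference was −3.11 (adjusted p = 3.16e-06), and the genotype difference at E16.5 less that at E15.5 was 0.19 (adjusted p = 0.368 for the interaction). The call at E15.5 was lost with the scanner software's own processed signals (−0.61, adjusted p = 0.614) and in the deposited series table (−1.81, adjusted p = 0.594).

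**Figure D2:**
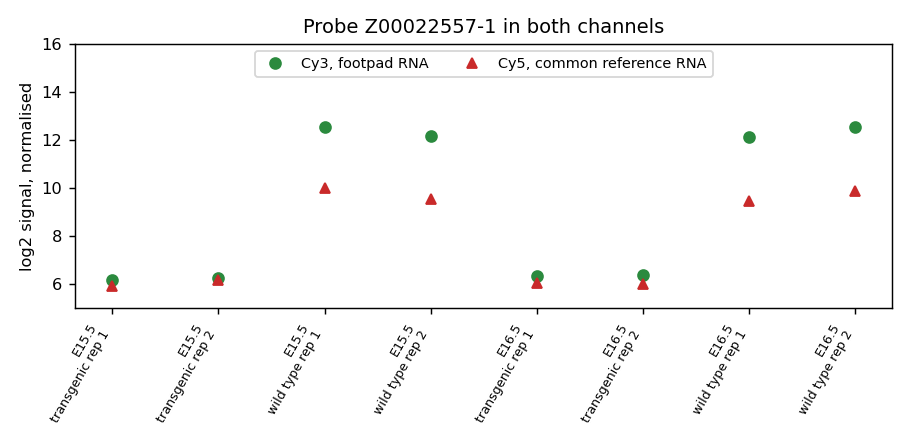
Normalised log2 signal (vertical axis) of probe Z00022557-1 in the footpad channel (Cy3) and the reference channel (Cy5) on each of the 8 arrays, grouped by age and genotype; each point is 1 array. At both ages the transgenic arrays are low in both channels; at E15.5 the wild-type Cy5 mean was 9.76 and the transgenic mean 6.04.

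Among unplaced probes with no call, those with the lowest p were 2 that stood higher in transgenic skin and 1 that stood lower; other uncalled probes differed by more, with a wider spread. Z00025156-1 had log2 ratios of 4.10 and 4.18 in transgenic and 3.39 and 3.57 in wild-type samples, a difference of 0.66 (SE 0.08, limma adjusted p = 0.305), which is 1.58-fold. It passed the test in Cy3 alone (0.91, adjusted p = 0.0167), where 2 probes (0.00632%) were called in all, and its Cy5 difference was 0.31. Its E16.5 difference was 0.54 (adjusted p = 0.00787), and the E15.5 difference was 0.16 with the scanner software's signals.

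Z00046112-1 read 1.19 and 1.24 in transgenic and 0.71 and 0.78 in wild-type samples. The difference was 0.47 (SE 0.06, adjusted p = 0.305) at E15.5 and 0.84 (adjusted p = 0.00137) at E16.5. Cy5 of this probe was not well above background on any of the 8 arrays, so its ratios are taken against a channel at its floor; Cy3 alone differed by 0.46 (adjusted p = 0.139) at E15.5. In both readings the transgenic samples were the higher ones at E15.5. Z00029914-1 read 2.67 and 2.80 in transgenic and 3.27 and 3.22 in wild-type samples, a difference of −0.51 (SE 0.06, adjusted p = 0.305), with −0.08 (adjusted p = 0.44) at E16.5. Its Cy5 was not well above background on 3 of the 4 E15.5 arrays, and Cy3 alone differed by −0.52 (adjusted p = 0.151). The direction of the ratio turned with the scanner software's signals and in the series table, where it was 0.10 in each.

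The small shifts were of even size in both directions. Over the 2385 probes with an unadjusted p under 0.05, the median absolute difference was 0.176 on the log2 scale, or 1.13-fold, and 99.6% were under 1.5-fold. The share of probes with such a p was 6.34% in the dimmest of 5 equal bins of Cy3 signal, 8.93%, 10.4% and 7.21% in the next bins, and 4.81% in the brightest. The median log2 Cy3 signal was 8.45 over all tested probes, 8.66 over the higher ones and 7.54 over the lower ones, so the lower probes were dimmer. Median GC content of the probe was 45% in all 3 sets. Brightness moved with direction, and its part in the counts was not tested.

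Over these 2385 probes the differences were larger in the footpad channel than in the reference channel. The probes were picked by the ratio of Cy3 over Cy5, so some agreement with either channel follows from the pick. Whether the shifts come from footpad RNA was not tested. Of the 2385 probes, 1167 (48.9%) had an unadjusted p under 0.05 and the same direction in Cy3 alone, and 132 (5.53%) had an unadjusted p under 0.05 in Cy5 alone. Among all tested probes the latter count was 838 (2.65%). For Cy3 alone, 1219 of all tested probes were higher and 636 lower at an unadjusted p under 0.05. The median absolute difference of the 2385 probes was 0.148 in Cy3 and 0.0364 in Cy5.

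Probes that stood higher in transgenic skin at E15.5 mostly stood higher at E16.5 too, while those that stood lower were lower at E16.5 about as often as all probes were. The comparison at E16.5 used other arrays, on which 4364 probes (13.8%) were called. Both ages came from the same fit, however, which gives each probe a variance shared by the ages. Picking probes by a small p at E15.5 therefore also favours a small SE at E16.5. This can raise the called shares of such probes, here and below, and its part in them was not tested. Of the 1405 probes higher at E15.5 with an unadjusted p under 0.05, 1142 (81.3%) were higher at E16.5, against 48.5% of all tested probes. Of these 1405, 667 (47.5%) were also called higher at E16.5 and 66 were called lower. The median of their differences went from 0.18 at the earlier age to 0.21 at the later one. Of the 13026 probes higher at E15.5 without such a p, 869 (6.67%) were called higher at E16.5 and 764 were called lower. Of the 980 probes lower at E15.5, 502 (51.2%) were lower at E16.5, against 51.5% of all probes. There, 83 (8.47%) were called lower and 81 called higher, and the median went from −0.17 at E15.5 to −0.00 at E16.5. Of the 16215 probes lower at E15.5 without such a p, 1135 (7.0%) were called lower at E16.5 and 699 were called higher. The called share of the 980 was thus near that of the other lower probes.

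At smaller p-values more probes kept their direction on both sides. Of 52 probes higher at E15.5 with an unadjusted p under 0.001, 48 (92.3%) were higher at E16.5 and 44 of those were called. Of 15 lower probes, 10 (66.7%) were lower at E16.5 and 6 of those were called, while 4 were called higher. Over all tested probes, 13.8% were called at E16.5 in either direction. The variance shared by the ages can raise the called counts at these smaller p-values too. At E16.5 the transgenic arrays were on slide 2 and the wild-type arrays on slide 3, scanned on different days. In every E16.5 value given here the genotype therefore cannot be told apart from the slide. Positions 1 and 2 held transgenic samples at both ages, so a position effect shared by the ages and an effect of genotype cannot be told apart either. The share of higher probes that kept their direction fell to 66.7% when transgenic replicate 1 was left out, and to 72.8% when wild-type replicate 2 was. With median centring in place of the intensity-dependent curve it was 72.3%, where 74.7% of all probes were higher at E16.5, so the excess over all probes was not seen there. The share of lower probes that stayed lower, 51.2%, depended on the setting: it rose to 62.6% with Cy3 alone (51.8% of all probes) and to 61.3% when wild-type replicate 1 was left out. It was 45.7% without transgenic replicate 2.

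**Figure D3:**
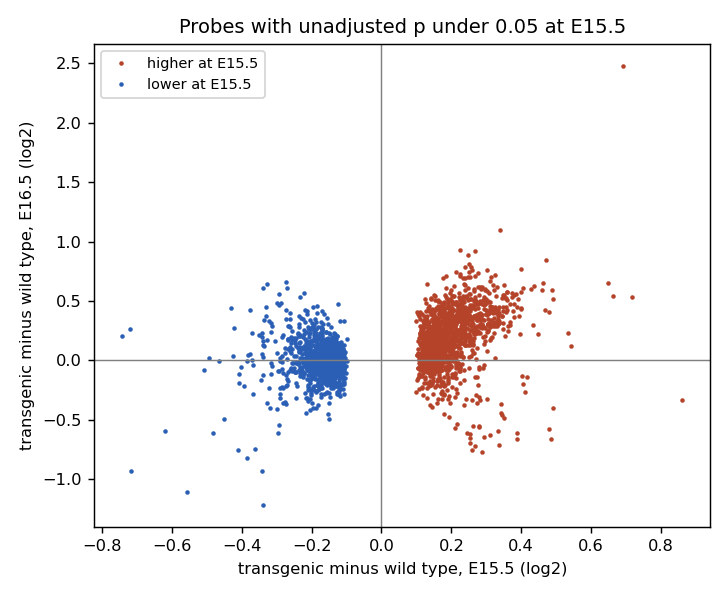
Difference in log2 ratio, transgenic minus wild type, at E15.5 (horizontal axis) and E16.5 (vertical axis) for tested probes with an unadjusted p under 0.05 at E15.5; each point is 1 probe, and Z00022557-1 (−3.31 and −3.11) is not drawn. Of the higher probes 81.3% lie above 0 at E16.5, and of the lower probes 51.2% lie below 0.

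Probes that share bases may read the same RNA or different ones, which was not tested. They show how far a small shift repeats between spots with shared bases on the same arrays, and they are no further samples. Of the tested probes, 1601 fell into 756 groups, joined through pairs that share at least 25 bases. There were 912 such pairs. The pair had the same direction at E15.5 in 670 cases (73.5%). Where at least 1 member had an unadjusted p under 0.05 the share was 73 of 79 pairs (92.4%). In 17 sets of spots with identical sequence, the differences of the set spanned a median of 0.0395 and at most 0.188.

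In 20 groups (2.65%) every member had an unadjusted p under 0.05 and the same direction. Of these, 16 were higher and 4 lower in transgenic skin, and in 12 of the 16 and 2 of the 4 every member had the same direction at E16.5. The groups were picked out after their values were seen and are given as a description. The following runs, in capitals, are bases shared by every member of the group, shown because more than 1 spot per array gave the shift. The first 5 are groups that stood higher at E15.5 and the last 2 stood lower.
Group of 4 probes: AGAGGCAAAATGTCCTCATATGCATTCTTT
Identical pair: GTCCAGCATCACATCACTTGAATAACCCTC
Pair A: GTCACCGCCATGGACGTGGTCTACGCGCTC
Pair B: AAGCGCCACCGCAAAGTGCTGCGCGA
Pair C: TCTTCCCCCACTACACCCCAGGACACCTAA
Pair D: TTTAAGCTAGTGATCTGGCAACTGTGCGGG
Pair E: TCGTCTAGCTTATTATTTGTCTCACCTGGA

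The group of 4 probes differed by 0.31 to 0.32 at E15.5 and by 0.29 to 0.44 at E16.5. The identical pair differed by 0.33 and 0.39 at E15.5 and by 0.35 and 0.37 at E16.5. These groups were higher by about the same amount at both ages. In the identical pair, however, no probe had Cy3 well above background on all 4 E15.5 arrays. Pair A differed by 0.22 and 0.24 at E15.5 and by 0.63 to 0.71 at E16.5 (adjusted p at most 0.00474 at E16.5). Pair B differed by 0.21 and 0.24, and by 0.74 to 0.78 at E16.5 (adjusted p at most 0.00296). In pairs A and B the small E15.5 difference stood before a larger called one at E16.5, though the change between ages was not called (lowest interaction adjusted p 0.0777 in pair A and 0.0737 in pair B).

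Other groups turned. Pair C was higher by 0.25 and 0.28 at E15.5 and lower at E16.5, by −0.62 and −0.56 (adjusted p at most 0.0152), and its Cy5 differences at E15.5 were 0.20 and 0.24. Pair D was lower by −0.28 and −0.21 at E15.5 and higher by 0.21 and 0.26 at E16.5 (adjusted p at most 0.0489). Pair E was lower at both ages, by −0.41 and −0.17 at E15.5 and by −0.22 and −0.11 at E16.5. Which genes these sequences belong to was not settled here.

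**Figure D4:**
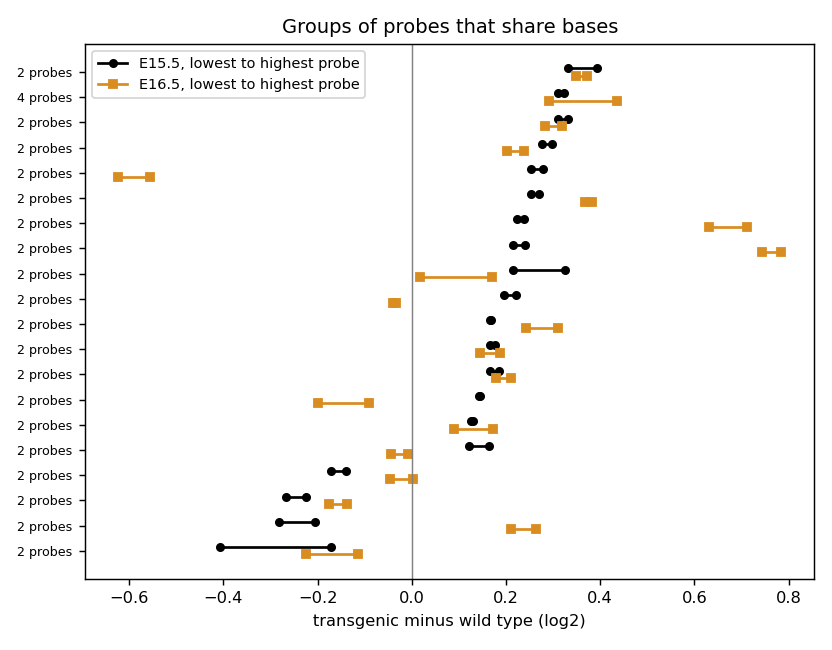
Difference in log2 ratio at E15.5 and E16.5 for the 20 groups of probes that share at least 25 bases and have an unadjusted p under 0.05 in every member at E15.5; each line runs from the lowest to the highest probe of a group, and groups are in the order of their lowest E15.5 difference. Most groups span little at E15.5, the lowest group the most (−0.41 to −0.17), and 16 groups are above 0 and 4 below 0 at E15.5.

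Near gene starts no probe passed the test. Of the 308 placed probes tested, 0 were called by limma, while 34 (11.0%) had an unadjusted p under 0.05, against 7.54% of all probes. Of these 12 were higher and 22 lower. The groups did not overlap for 37.0% of placed probes, against 36.8% of all. The share with an unadjusted p under 0.05 was 11.4% of 105 probes on the gene's strand that reach over the start, and 15.1% of 73 on that strand upstream only. It was 4.35% of 23 on the opposite strand over the start and 9.52% of 105 on the opposite strand upstream. Placed differences ranged from −0.34 to 0.36 with a median of −0.01.

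The pathway lists reached only 3 placed probes. None of 72 Wnt pathway genes and none of 17 Shh pathway genes had one; the list for Eda and NF-kB had 2 of 25 (Ltb, Madcam1) and that for sweat glands 1 of 34 (Aqp5). No list probe was called, and the median of the Eda and NF-kB list was −0.05 against −0.01 over all probes. These lists therefore say nothing of the pathways as a whole.

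Aqp5 encodes a water channel of secretory glands, sweat glands included. Its probe (chr15:99590881-99590940) lies on the gene's strand, from 147 to 88 bases before the start and within the listed gene Gm34765. Log2 ratios were −0.79 and −0.83 in transgenic and −0.57 and −0.65 in wild-type samples; the transgenic values were both the lower ones. The difference was −0.20 (SE 0.08, adjusted p = 0.656) at E15.5 and 0.45 (adjusted p = 0.0156) at E16.5, with an interaction adjusted p of 0.0777. In Cy3 alone the E15.5 difference was −0.05, while Cy5 differed by 0.15.

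Ltb encodes lymphotoxin beta, a TNF-family cytokine known as a target of Eda signalling in skin. Its probe (chr17:35194278-35194337) lies on the gene's strand from 229 to 170 bases before the start. Log2 ratios were −0.02 and −0.09 in transgenic and 0.06 and 0.00 in wild-type samples. The groups did not overlap, but the gap between them was smaller than the distance between replicates of either genotype. The difference was −0.09 (SE 0.05, adjusted p = 0.766) at E15.5 and −0.11 (adjusted p = 0.182) at E16.5.

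Madcam1 encodes an adhesion molecule that binds lymphocyte integrins. Its probe (chr10:79664575-79664634) lies within the gene, starting 16 bases after the listed start. It read 0.10 and 0.06 in transgenic and 0.05 and 0.12 in wild-type samples, which overlap, and the difference was −0.00 (SE 0.05, adjusted p = 0.996). The sign of that difference turned under 5 other settings.

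Vangl2 encodes a membrane protein of planar cell polarity, a beta-catenin-independent arm of Wnt signalling. Its probe (chr1:172027402-172027461) lies on the gene's strand from 166 to 107 bases before the start. The transgenic samples read −0.08 and −0.02 and the wild-type samples −0.24 and −0.18, a difference of 0.15 (SE 0.05, adjusted p = 0.555). The footpad channel alone differed by −0.01 and the reference channel by −0.18, so the difference lay in Cy5. At E16.5 it was −0.08.

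Among placed probes that stood lower at E15.5, Cfap410 had the largest difference. Cfap410 encodes a protein of cilia, and its probe (chr10:77978615-77978674) covers 35 bases before the start and 25 after it. The transgenic samples read −0.31 and −0.31 and the wild-type samples 0.03 and 0.03, so both pairs of replicates lay close and apart from each other. The probe was very bright: its background-subtracted Cy5 was 102647 to 103790 on the E15.5 arrays, where array medians were 140 to 150. The part of that signal level in the result was not tested. The E15.5 difference was −0.34 (SE 0.04, adjusted p = 0.354). At E16.5 the outlier spot of wild-type replicate 2 was dropped, so that age rests on 1 wild-type array, at −1.17, which the fit assumes to vary like the other groups. On that footing the E16.5 difference was 0.34 (adjusted p = 0.0124) and the change between ages 0.68 (interaction adjusted p = 0.0454), with no check by a second wild-type array. The interaction was called for 29 probes (0.0917%) in all.

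Fgd4 encodes an exchange factor for the GTPase Cdc42. Its probe, on the opposite strand (chr16:16600087-16600146), read −0.79 and −0.73 in transgenic and −0.56 and −0.53 in wild-type samples, a difference of −0.22 (SE 0.05, adjusted p = 0.429). Myo3b, a class III myosin gene, had a probe upstream of its start (chr2:70039009-70039068) that read −0.12 and −0.04 against 0.08 and 0.12, a difference of −0.18 (SE 0.06, adjusted p = 0.506). In both, the transgenic samples were below the wild-type samples by more than replicates differed, without passing the test. Cy3 alone differed by −0.15 at Fgd4 and by −0.08 at Myo3b, and Cy5 by 0.06 and 0.10. Sord encodes sorbitol dehydrogenase; its probe (chr2:122234825-122234884) covers the start and read −1.07 and −0.92 in transgenic and −0.89 and −0.79 in wild-type samples. There the difference of −0.15 (SE 0.06, adjusted p = 0.615) was close to the gap between the transgenic replicates.

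The other lower placed probes that the naming rule picked, which asks for Cy3 well above background on all 4 arrays and groups that do not overlap, lay between −0.20 and −0.11 with adjusted p of 0.466 or more. They lie at Gm36377 (−0.20, with Cy5 not well above background on any array), the vomeronasal receptor gene Vmn1r90 (−0.17), the sterol-binding protein gene Osbpl6 (−0.17), the ubiquitin ligase gene Mkrn1 (−0.14), the elongation factor 2 kinase gene Eef2k (−0.14), the nucleoside diphosphate kinase gene Nme2 (−0.14), Spag7 (−0.11) and Gm32287 (−0.11). The probes at Gm36377, Osbpl6, Mkrn1, Eef2k and Gm32287 lie on the opposite strand, so they are not readings of those genes' own transcripts. At Eef2k the Cy3 difference was −0.00 and the Cy5 difference 0.13. At Osbpl6 they were −0.08 and 0.09. Vmn1r90 was also lower at E16.5 (−0.23, adjusted p = 0.0353), whereas Mkrn1 (0.19, adjusted p = 0.0446) and Nme2 (0.23, adjusted p = 0.0283) were higher there. Of the 22 lower placed probes with an unadjusted p under 0.05, 8 were lower and 14 higher at E16.5. Of these, 2 of the former and 5 of the latter were called, beside 13.8% of all probes called in either direction.

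Among placed probes that stood higher, Arhgap27os3 and Ccdc33 led. Arhgap27os3 is an antisense RNA gene at Arhgap27. Its probe (chr11:103344762-103344821) read 2.12 and 2.19 in transgenic and 1.76 and 1.82 in wild-type samples, a difference of 0.36 (SE 0.06, adjusted p = 0.365), or 1.28-fold, and 0.57 (adjusted p = 0.00406) at E16.5. It stood higher at both ages. The probe overlaps Arhgap27 on the other strand.

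Ccdc33 encodes a coiled-coil protein. Its probe (chr9:58102179-58102238) covers 13 bases before the start and 47 after it, and also overlaps the listed gene Stra6. Log2 ratios were 0.64 and 0.43 in transgenic and 0.13 and 0.25 in wild-type samples. The difference was 0.34 (SE 0.11, adjusted p = 0.506) at E15.5 and −0.44 (adjusted p = 0.0382) at E16.5, with an interaction adjusted p of 0.091. The 2 transgenic samples lay farther apart than the 2 wild-type samples did.

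Gm9222 (chr12:17881637-17881696) read 1.08 and 1.07 in transgenic and 0.77 and 0.86 in wild-type samples, a difference of 0.26 (SE 0.06, adjusted p = 0.429), with 0.31 (adjusted p = 0.0177) at E16.5. Tulp4, a gene of the tubby-like family, had a probe upstream of its start (chr17:6137920-6137979) that read 0.45 and 0.38 against 0.19 and 0.19, a difference of 0.22 (SE 0.06, adjusted p = 0.443). At 6430550D23Rik (chr2:156007915-156007974), which lies opposite Ergic3, the values were 0.11 and 0.12 against −0.02 and −0.12. Its difference was 0.19 (SE 0.06, adjusted p = 0.487) at E15.5 and −0.25 (adjusted p = 0.0334) at E16.5, so it changed sides between the ages. The probe was dim, however. Its background-subtracted Cy3 at E16.5 was 10.7 and 14.3 in transgenic and 11.0 and 15.4 in wild-type samples. On the dimmer E16.5 array of each genotype Cy3 was not well above background, so the change of sides rests on signals near the floor.

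The other higher placed probes picked by the same rule lay between 0.13 and 0.18. They lie at Abcb1b (0.18), which encodes a drug efflux pump, Pou2f2 (0.17), which encodes the transcription factor Oct-2 of B cells, Igsf23 (0.16), 4930522L14Rik (0.15), 4930538E20Rik (0.15) and Nrm (0.13), which encodes a protein of the nuclear envelope. The probes at Abcb1b, Igsf23, 4930538E20Rik and Nrm lie upstream on the opposite strand, so they are not readings of those genes' own transcripts. Those at Abcb1b and Igsf23 overlap the listed genes Gm5106 and Rpl7a-ps8. At Pou2f2 the Cy3 difference was 0.03 and the Cy5 difference −0.17, so most of its difference lay in the reference channel. The same held at Abcb1b, with 0.06 in Cy3 and −0.13 in Cy5. The probe at 4930538E20Rik, which overlaps the listed gene Bcl11a, was higher at E16.5 by 0.39 (adjusted p = 0.00834). Of the 12 higher placed probes with an unadjusted p under 0.05, 6 were higher and 6 lower at E16.5, with 3 called on each side. That is 6 of 12 with a kept direction, beside 81.3% over all higher probes. The gap was not tested. Calls at E16.5 in either direction took in 13.8% of all probes.

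**Figure D5:**
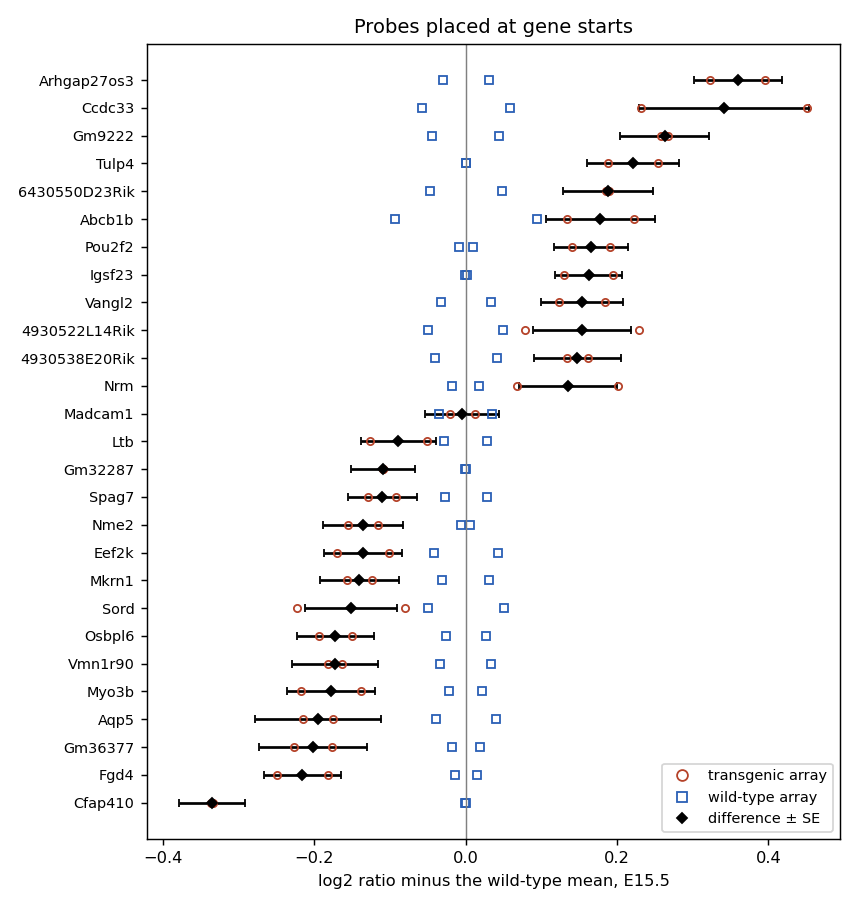
Log2 ratio less the wild-type mean of the same probe (horizontal axis) for the named placed probes on the 4 E15.5 arrays, 1 probe per line, labelled by the gene at its place. Open symbols are single arrays, circles transgenic and squares wild type, and black diamonds with bars are the difference and its SE. The largest gaps are at Cfap410 (−0.34) and Arhgap27os3 (0.36).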

How the data were processed

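Footpad RNA (Cy3) and a common reference (Cy5) were read on Agilent arrays. The deposited scanner files give spot intensity, mean and background, per channel, made with Agilent Feature Extraction 9.5.1.1 per the file headers, which also give its log10 ratio; the deposited series table holds values close to the log10 processed Cy3 signal (median 2.57 on the E15.5 arrays), with its scaling and centring unstated.

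In limma 3.58.1 (R 4.3.3), intensities were corrected with normexp (offset 50) and normalised by loess within arrays, control spots having weight 0. Ratios were turned to Cy3 over Cy5, outlier spots dropped and spots of a probe averaged. Probes with Cy3 well above background on both arrays of any group were kept. A model of 4 group means over all 8 arrays (4 residual degrees of freedom) gave two-sided tests with Benjamini-Hochberg adjustment at 0.05; the code was checked on simulated data. The small number of arrays limits the precision.

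Named are every called probe, the 12 higher and 12 lower placed probes with the lowest p and the 5 largest each way (Cy3 well above background on all 4 E15.5 arrays, groups not overlapping), list members, and at most 2 unplaced probes each way. The planned match by protein translation was not used; start windows were matched instead, over all 60 bases or at least 30 running to the window's edge, which was chosen after seeing the files. Members, lists and rules were chosen with earlier results of these data known.

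Alternatives were no background correction, the scanner software's signals, median centring, Cy3 alone, other filters on dim probes, the 4 arrays alone, a trended robust prior, the series table, a replicate block and each array left out. Same-numbered samples did not deviate together (correlation −0.0995), so replicate numbers were not taken as pairs.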

Additional observations from a re-analysis of the deposited data

Results flagged for a closer look

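The genotype difference of the Cfap410 probe differed between ages in the fit: −0.34 at E15.5 and 0.34 at E16.5 on the log2 scale, a change of 0.678 (limma interaction adjusted p = 0.0454). The 4 E15.5 arrays shared 1 slide and at E16.5 each genotype had a slide of its own; in the latter value the genotype cannot be told apart from the slide. The E16.5 value rests on 1 wild-type array, since the spot of wild-type replicate 2 was dropped as an outlier, so the change has no replicate check on that side.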

How the results depend on the processing

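The count of called probes was 1 and stayed 1 in 6 settings, among them a replicate block by sample number, although the numbers do not pair the samples. It was 0 with the scanner software's signals and 0 in the series table, 2 with Cy3 alone (1 higher, 1 lower) and 52 with median centring (30 higher, 22 lower). Leaving out 1 array gave 1 to 6 calls: 6 without transgenic replicate 2 (3 higher), 2 without wild-type replicate 1, and 1 without either other array. Unadjusted p under 0.05 was met by 2203 probes with the scanner software's signals, 1305 in the series table and 877 with median centring. The Aqp5 probe, the sweat gland list's only member, moved to −0.0542 with Cy3 alone.

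Of 33 results, the named probes and the shares of kept directions, 30 kept their direction under every one of up to 14 alternatives. A share cannot fall below 0, so the shares could not turn in this count. Where the genotypes did not overlap, as at every named probe but Madcam1, leaving out 1 array could not turn the sign. Other filters on dim probes, the 4 arrays alone, the trended robust prior and the replicate block keep the same difference of group means. They could not turn it either, so much of this count was fixed in advance. With median centring the share of higher probes was 72.3%, below the 74.7% of all probes. Of the probes, Vangl2 turned, at −0.00963 with Cy3 alone. Madcam1 was 0.00801 without background correction, 0.0367 with the scanner software's signals, 0.0146 with median centring, and −0.0399 to 0.0304 with 1 array left out. Z00029914-1 was 0.10 with the scanner software's signals and 0.10 in the series table. The cause was not tested, beyond that Cy3 alone leaves out the reference.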
